A study of Mus musculus with 6 samples.

Results

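Cxcr2 and 9 chemokine genes of the skin (Cxcl1, Cxcl2, Cxcl3, Cxcl5, Cxcl12, Cxcl14, Cxcl16, Ccl20 and Ccl27a) were followed through 6 RNA sequencing libraries of mouse epidermis. The genes were listed by symbol, and all 10 were found among the 41214 gene identifiers of the count files. The list was drawn up with the difference between the genotypes already known, and its genes were chosen by their CPM in ko against wt. That difference is therefore described for the 10 genes with values and errors, and no p-value is printed for them. Where a call of the fit is mentioned for one of them, it belongs to the choice and supports nothing. The libraries came from skin of C57BL/6 mice at postnatal day 4 treated with trypsin, 3 with the genotype wt and 3 with the genotype ARPC4 ko, marked hom in the titles. ARPC4 belongs to the Arp2/3 complex, which starts new actin filaments as branches on old ones, and the series title speaks of a psoriasis-like disease after its loss in the epidermis. The Cre line or promoter, the deleted part of the gene, the sex of the animals and the number of animals per library were not given in the sources used here. Replicates 1 and 2 of each genotype carry one shared date in their titles and replicate 3 carries none.

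Chemokines are small secreted proteins that steer the movement of leukocytes through receptors coupled to G proteins. CXCR2 is the receptor for CXC chemokines with a glutamate-leucine-arginine motif before the first cysteines, among them the products of Cxcl1, Cxcl2, Cxcl3 and Cxcl5. It is best known from neutrophils, which it draws into inflamed skin, and it has also been described on keratinocytes. Cxcl14, Cxcl16 and Ccl27a are known as chemokines that epidermis makes without inflammation. Ccl20, which attracts cells with the receptor CCR6, is raised in psoriatic skin, and Cxcl12, the ligand of CXCR4, comes mainly from stromal cells.

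Counts in genes summed to between 17561294 and 22659511 per library. Levels are CPM, the counts scaled to a common library size after TMM, a method that assumes most genes do not differ. Arpc4 itself had 72.5 to 82.5 CPM in the wt libraries against 64.5 to 67.5 CPM in the ko libraries (log2 fold change -0.21, 95% interval -0.46 to 0.04), and its adjusted p was 0.469 by edgeR and Benjamini-Hochberg. Which exons were deleted is not known here, so that level does not check the deletion. Keratinocyte markers were abundant in all libraries, with Krt1 between 31502 and 70327 CPM. Basal keratinocyte markers differed more among libraries than between genotypes. Their sum was 7573, 2080 and 10160 CPM in wt replicates 1 to 3 and 3284, 4567 and 11707 CPM in ko replicates 1 to 3. Vessel and connective tissue markers were present as well, and their summed values are given beside Cxcr2. In such bulk samples, fewer cells of a type and less RNA per cell cannot be told apart. The labels do not say whether replicates were separate animals, and p-values then cover only the spread between these samples, which may be technical.

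Cxcr2 (ENSMUSG00000026180, chromosome 1, 74153989 to 74161246, plus strand, mm10) was nearly silent in wt epidermis and clearly detected in ko. It was counted at 0.308, 0.160 and 0.363 CPM in wt replicates 1 to 3, which is 7, 3 and 8 reads. In ko replicates 1 to 3 it was counted at 5.12, 13.2 and 13.2 CPM, which is 103, 224 and 251 reads. The ko libraries all lay above the wt libraries, and ko replicate 1 was the lowest of the ko libraries. The means were 0.277 ± 0.105 and 10.5 ± 4.67 CPM (SD, n = 3), a ratio of 38.0. The fit across all genes gave a log2 fold change of 5.19 (SE 0.55, 95% interval 3.88 to 6.49). The 18 reads of wt have an exact Poisson 95% interval of 10.7 to 28.4 and the 578 reads of ko one of 532 to 627, both for counting error only. Within the dated libraries the ratio of means was 39.3, and between the undated libraries it was 36.3. Of 3039 windows of 51 bases in the Cxcr2 transcripts, 93.6% occur in no annotated transcript of another gene.

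**Figure D1:**
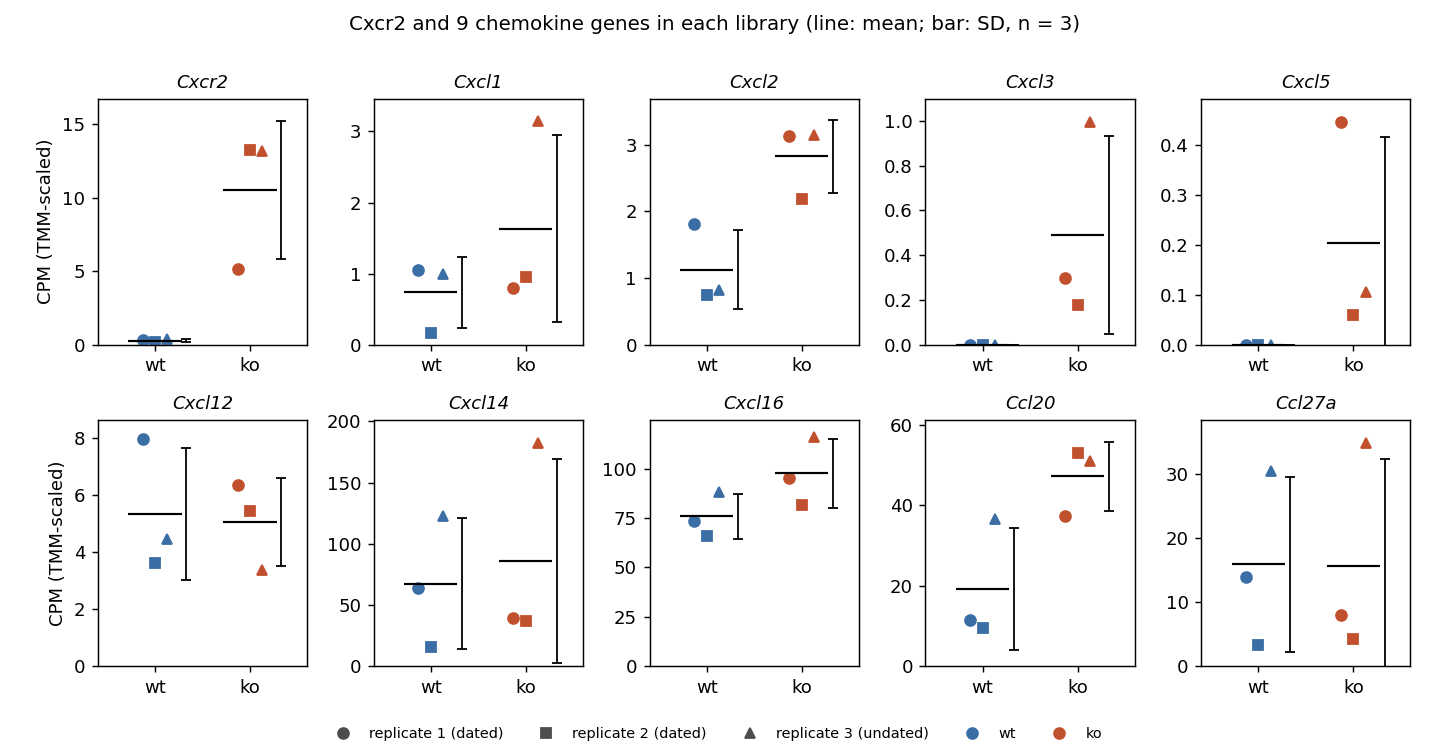
CPM (TMM-scaled) of Cxcr2 and the 9 chemokine genes in each library, with wt in blue and ko in red, symbols for replicates 1 to 3, a line at the mean and a bar of 1 SD (n = 3, drawn down to 0 at the lowest). Each panel has its own axis from 0. The ko libraries of Cxcr2 sit between 5.12 and 13.2 CPM and the wt libraries below 0.4, while Cxcl14 and Ccl27a spread widely within both genotypes.

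A filter on low counts kept 13704 genes, among them 8 of the 10 listed. Cxcl3 and Cxcl5 did not pass, and Cxcr2 passed only through its ko libraries, since no wt library reached the minimum of 0.499 CPM. Cxcl1 reached it in 2 wt libraries and all ko libraries. With edgeR's quasi-likelihood test, 0.219% of all genes passed an adjusted p of 0.05, 30 in number and all of them higher in ko. Of the 8 listed genes, 1 was among those 30, namely Cxcr2, and that contrast was used to choose it. Groups without overlap, ko above, made up 11.3% of the genes tested. Among the 8 listed genes these were 3, Cxcr2, Cxcl2 and Ccl20, and 5 of all 10 with Cxcl3 and Cxcl5, against 9.58% of the 22318 genes with a count. Groups with ko below made up 8.03% of the genes tested, and none of the 8 was among them, and 19.4% did not overlap in either direction. For the gene lists that follow, the shares over all genes tested were 7.98% for higher and 5.25% for lower at p under 0.05 before adjustment, and DESeq2 called 2.82% higher and 1.43% lower. The median log2 fold change of the 8 was 0.73, against 0.02 over all genes tested, and 6 of the 8 had values above 0. Since the contrast was used to choose the genes, nothing is read from these shares.

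The ligands of CXCR2 lie side by side on chromosome 5, in a stretch of 146.6 kb from Cxcl5 to Cxcl2. Cxcl1, Cxcl2 and Cxcl3 carry the same NF-kB motif a short way before their starts, and Ccl20 holds matches at a like distance. The bases from -120 to -1 are shown for them and for Cxcr2, because the receptor and its ligands can then be compared at the same place. Position 1 is the first base of the RefSeq transcript (build GRCm38.p6, plus strand for all 5). RefSeq and GENCODE place the first base differently for some of these genes. Capitals mark matches to the NF-kB motif and to the TATA box letters TATAAA, both searched on both strands.
Cxcl1, chr5:90891125-90891244: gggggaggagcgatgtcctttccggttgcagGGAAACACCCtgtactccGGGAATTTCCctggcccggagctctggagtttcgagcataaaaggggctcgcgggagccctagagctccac
Cxcl2, chr5:90903779-90903898: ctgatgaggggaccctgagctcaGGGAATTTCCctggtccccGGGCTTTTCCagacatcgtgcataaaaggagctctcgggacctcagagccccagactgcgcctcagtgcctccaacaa
Cxcl3, chr5:90785981-90786100: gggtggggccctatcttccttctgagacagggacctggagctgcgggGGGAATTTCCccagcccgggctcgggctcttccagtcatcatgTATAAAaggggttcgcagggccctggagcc
Ccl20, chr1:83116646-83116765: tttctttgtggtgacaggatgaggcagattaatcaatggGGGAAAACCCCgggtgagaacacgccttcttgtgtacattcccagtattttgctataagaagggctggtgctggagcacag
Cxcr2, chr1:74153874-74153993: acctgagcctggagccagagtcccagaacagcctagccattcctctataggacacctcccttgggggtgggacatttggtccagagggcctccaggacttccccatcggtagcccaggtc
In Cxcl1 the forward match GGGAATTTCC begins at -71, after a match on the opposite strand at -89. In Cxcl2 the same 10 letters begin at -97 and a second match, GGGCTTTTCC, begins at -78. In Cxcl3 they begin at -73, and TATAAA, found in 13.6% of all windows, follows at -30. Ccl20 has matches on the opposite strand at -81 and -80 that overlap each other in all but 1 base. The NF-kB motif occurs in 4.79% of 32851 promoter windows of 300 bases in the RefSeq table, and the exact letters GGGAATTTCC, chosen after the matches were seen, in 0.0883% on either strand. Windows were found for 8 of the 10 genes, and 4 of these held an NF-kB match. AP-1 (TGANTCA, 7.81% of all windows) matched in 1 of 3 windows of Ccl27a, and the Stat3 motif (TTCNNNGAA, 8.3%) in Cxcl14. The core of the antioxidant response element that Nrf2 binds (TGACNNNGC, 12.4%) matched in 0 of the 8 genes. A match describes letters, and binding was not measured.

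Transcripts of the ligands were scarce in both genotypes. Cxcl2 lay higher in every ko library, Cxcl1 overlapped between the genotypes, and Cxcl3 and Cxcl5 had reads in ko libraries and none in wt. Cxcl2 (ENSMUSG00000058427, chromosome 5, 90903871 to 90905938) had 1.80, 0.745 and 0.816 CPM in the wt libraries, in replicate order, against 3.13, 2.19 and 3.15 CPM in the ko libraries. Its groups did not overlap, and the log2 fold change was 1.31 (SE 0.39, 95% interval 0.38 to 2.25). Cxcl1 (ENSMUSG00000029380, chromosome 5, 90891241 to 90893115), the mouse counterpart of the human GRO chemokines, had 1.06, 0.160 and 0.998 CPM in the wt libraries, in replicate order, against 0.795, 0.946 and 3.15 CPM in the ko libraries. Its groups overlapped, and ko replicate 3 alone lay above all wt libraries (log2 fold change 1.1, SE 0.73, 95% interval -0.65 to 2.85). Without ko replicate 3 the Cxcl1 value was 0.15. Within the dated libraries the ratio of the Cxcl1 means was 1.43, and between the undated ones it was 3.15. For Cxcl2 these ratios were 2.09 and 3.86.

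Cxcl3 (ENSMUSG00000029379, chromosome 5, 90786103 to 90789600) and Cxcl5 (ENSMUSG00000029371, chromosome 5, 90759360 to 90761624) had no reads in any wt library. Cxcl3 had 6, 3 and 19 reads in ko replicates 1 to 3, or 0.298, 0.177 and 0.997 CPM. Pooled over the ko libraries this is 10.6 times a floor of 3 reads over the wt group, set in place of the count of 0. Such a ratio leaves out the counting error of ko and is no strict lower limit. The 28 ko reads of Cxcl3 have an exact Poisson 95% interval of 18.6 to 40.5. Cxcl5, an epithelial ligand, had 9, 1 and 2 reads in ko, 4.53 times the same floor, with most of them from ko replicate 1. Its 12 ko reads have an interval of 6.2 to 21.0. Ppbp, which encodes a further CXCR2 ligand stored in platelets, had 1 read in wt and 36 in ko. Cxcl1 shares no 51-base window with another gene. Cxcl2 shares 5.78% of its windows, all of them with Cxcl3, and Cxcl3 shares 4.21% of its own.

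Receptor and ligands changed places in number of reads. Summed over Cxcl1, Cxcl2, Cxcl3 and Cxcl5, the ligands had 65, 17 and 40 reads in wt replicates 1 to 3, between 5.0 and 9.29 times those of Cxcr2. In ko replicates 1 to 3 they had 94, 57 and 141 reads, between 0.254 and 0.913 times those of Cxcr2. Longer transcripts collect more reads, so levels of different genes were set side by side per kb of the longest coding transcript. On that scale Cxcr2 lay at 0.101, 0.0524 and 0.119 CPM per kb in wt and the summed ligands at 2.08, 0.568 and 1.49. In ko Cxcr2 lay at 1.68, 4.35 and 4.32 CPM per kb and the ligands at 3.10, 2.38 and 6.04. Cxcr2 stood at 0.0486 to 0.0922 of the ligand sum per kb in wt and at 0.543 to 1.83 in ko, with no overlap. Only in ko replicate 2 did the receptor exceed the ligands per kb.

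**Figure D2:**
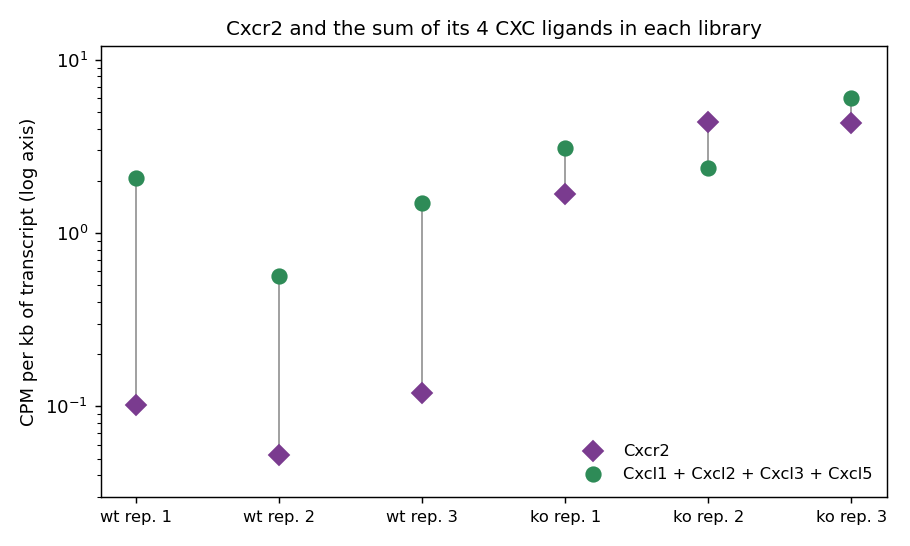
CPM per kb of transcript, on a log axis, of Cxcr2 (diamonds) and of the summed ligands Cxcl1, Cxcl2, Cxcl3 and Cxcl5 (circles) in each library, joined by a line. The gap is wide in the 3 wt libraries and narrow in the 3 ko libraries, and in ko replicate 2 the receptor stands above the ligands.

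Markers of cells that could carry Cxcr2 into the samples were measured in the same libraries. Of 22 neutrophil markers, Ly6g, Mmp8 and Cebpe had no reads in any library, and the granule genes Mpo, Elane and Camp stayed below 0.06 CPM in all. In total 14 of the 22 lay under 1 CPM in every library. The sum over the list was 21.3 to 33.4 CPM in wt and 33.9 to 43.6 CPM in ko, with Itgam, Ncf1 and Mmp9, which other cells also express, among the highest. Of the 6 neutrophil markers tested, 0 passed with edgeR, 1 was higher at p under 0.05 before adjustment and with DESeq2, and limma-voom called 0. That 1 was Lcn2, lipocalin 2, which keratinocytes also make and which fell short of the filter's minimum in 1 wt library (0.721 ± 0.538 in wt against 3.95 ± 3.02 CPM in ko, SD, n = 3, a log2 fold change of 2.44 with an adjusted p of 0.221 by edgeR). Csf3r, the receptor for the growth factor of neutrophils, had 0 to 0.136 CPM in the wt libraries against 0.497, 0.237 and 1.1 CPM in the ko libraries. Cxcr2 was highest in ko replicates 2 and 3, and the neutrophil sum was highest in ko replicate 1. The part of neutrophils in the Cxcr2 level was not tested.

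The summed levels of vessel and connective tissue markers lay higher in every ko library than in any wt library. The 10 endothelial markers summed to 3.88 to 4.62 CPM in wt and to 22.6, 25.1 and 12.2 CPM in ko replicates 1 to 3. The 10 fibroblast markers summed to 90.6 to 189.7 CPM in wt and to 617.4, 790.5 and 228.9 CPM in ko. All markers of both lists had reads in some library. In edgeR 0 of 9 endothelial and 0 of 10 fibroblast markers tested passed, while 9 of each list were higher at p under 0.05 before adjustment and DESeq2 called 7 and 6 higher. Of those tested, 8 endothelial and 3 fibroblast markers reached the filter's minimum in all ko libraries but not in all wt libraries. For these, being tested already favoured a higher level in ko, which does not hold for most fibroblast markers. Both lists were chosen with earlier results of these data known, so nothing is read from either count. Macrophage and monocyte markers summed to 37.2 to 68.1 CPM in wt and 69.9 to 92.2 CPM in ko (0 of 8 passed with edgeR, 1 higher at p under 0.05 before adjustment and with DESeq2). That 1 was the mannose receptor gene Mrc1, with a log2 fold change of 2.65 (adjusted p = 0.0637), and it too fell short of the minimum in 1 wt library. Of 2 mast cell markers tested 1 passed the threshold, Hdc, the histidine decarboxylase gene (0.0799 ± 0.0313 in wt against 1.62 ± 0.767 CPM in ko, SD, n = 3, a log2 fold change of 4.27 and SE of 0.59 with an adjusted p of 0.0459 by edgeR). Hdc could be tested only because it was high in ko, with no wt library at the filter's minimum, so its p supports no change of the list, and it was not called with total-count scaling, with limma-voom or in the dated libraries alone. The 7 mast cell markers summed to 3.92 to 4.41 CPM in wt and to 9.34 to 12.1 CPM in ko. Kit, the other one tested, was also higher at p under 0.05 before adjustment (log2 fold change 0.88, adjusted p = 0.184 by edgeR). Fcer1a, which defines mast cells and basophils, had no reads, and the other markers of that list not tested were under 2 CPM in all libraries. Among these, Cpa3, Mcpt4 and Tpsb2 had higher means in ko, with ko replicate 3 within or below the range of wt. Cxcr2 had 5.12, 13.2 and 13.2 CPM in ko replicates 1 to 3. The order of so few libraries cannot show which cells carried it, and the part of these cells in the Cxcr2 level was not tested.

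**Figure D3:**
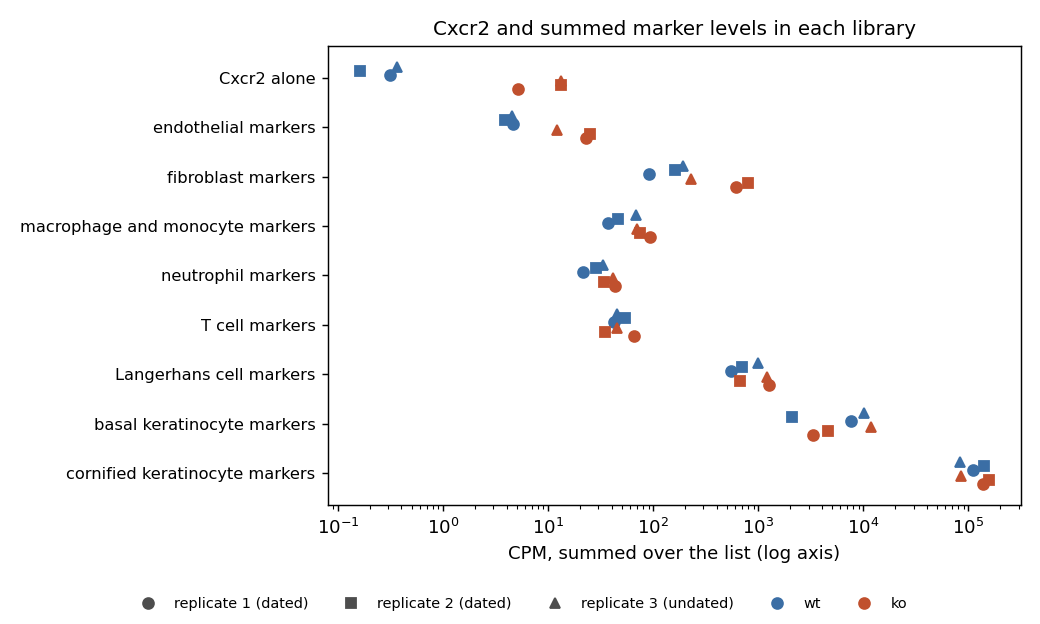
CPM of Cxcr2 and of marker lists summed over their genes, on a log axis, in each library (wt blue, ko red, symbols for replicates 1 to 3). Cxcr2 and the endothelial and fibroblast sums lie higher in every ko library than in every wt library. So do the macrophage and monocyte sum and the neutrophil sum, by a narrow margin. The keratinocyte, T cell and Langerhans cell sums overlap between the genotypes.

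Of the keratinocyte chemokines Ccl20 and Cxcl16, Cxcl16 was the steadier within both genotypes, while Ccl20 varied severalfold within wt. Ccl20 (ENSMUSG00000026166, chromosome 1, 83116766 to 83119167) had 11.5, 9.36 and 36.6 CPM in the wt libraries, in replicate order, against 37.4, 53.1 and 51.0 CPM in the ko libraries. The groups did not overlap, but wt replicate 3 reached almost the level of ko replicate 1. The log2 fold change was 1.30 (SE 0.51, 95% interval 0.08 to 2.51), and it was 2.16 without wt replicate 3. The ratio of means was 4.33 within the dated libraries and 1.39 between the undated ones. Ccr6, the receptor of Ccl20, had 1 read in wt and 4 in ko, too few to compare. Cxcl16 (ENSMUSG00000018920, chromosome 11, 70453983 to 70459984, minus strand), a chemokine held at the membrane and shed by proteases, had 73.2, 65.9 and 88.1 CPM in the wt libraries, in replicate order, against 95.03, 81.5 and 116.0 CPM in the ko libraries. The ko libraries had the higher mean, and ko replicate 2 fell within the range of wt (log2 fold change 0.37, SE 0.17, 95% interval -0.05 to 0.78). The ratio was 1.27 within the dated and 1.32 between the undated libraries. Exons of Zmynd15 on the opposite strand cover 18.3% of the Cxcl16 exon bases, and whether counting used strand is not given in the sources used here. Cxcr6, the receptor of Cxcl16, lay at 2.26 ± 0.949 CPM in wt against 1.30 ± 0.676 CPM in ko (SD, n = 3), with a log2 fold change of -0.77 and an adjusted p of 0.579 by edgeR. Adam10, whose protease sheds Cxcl16, lay at 107.6 ± 1.89 and 138.6 ± 13.2 CPM (a log2 fold change of 0.36 with an adjusted p of 0.251).

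Cxcl14 and Ccl27a varied severalfold among libraries of one genotype. Cxcl14 (ENSMUSG00000021508, chromosome 13, 56288643 to 56296551, minus strand), an attractant known from normal epithelia, had 63.5, 15.7 and 122.7 CPM in the wt libraries, in replicate order, against 38.9, 37.0 and 182.5 CPM in the ko libraries. The groups overlapped throughout, and replicate 3 was the highest in each (log2 fold change 0.36, SE 0.86, 95% interval -1.69 to 2.40). Ccl27a (ENSMUSG00000073888, chromosome 4, 41769467 to 41774247, minus strand), which attracts skin-homing T cells through CCR10, had 13.9, 3.30 and 30.5 CPM in the wt libraries, in replicate order, against 7.95, 4.26 and 34.9 CPM in the ko libraries. Its log2 fold change was -0.02 (SE 0.94, 95% interval -2.26 to 2.22). With intervals this wide, no difference in either gene was detectable. Of the 51-base windows of Ccl27a, 44.5% occur in transcripts of 6 other genes, among them Gm20878, Gm13306 and Ccl27b, and the authors' counts leave out reads that align to several places, so its level is uncertain. Ccr10 had 6 reads in wt and 10 in ko.

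Both genes shared their lowest library, and the highest of each genotype, with the basal keratinocyte markers. Krt5, a keratin of the basal layer, had 3424, 846.0 and 4301 CPM in the wt libraries, in replicate order, against 1292, 1677 and 5443 CPM in the ko libraries. Col17a1, a collagen of the hemidesmosome, had 661.8, 42.1 and 832.5 CPM in the wt libraries, in replicate order, against 150.6, 188.9 and 821.3 CPM in the ko libraries. In all 7 basal markers, as in Cxcl14 and Ccl27a, wt replicate 2 was the lowest library and replicate 3 the highest of its genotype. Ko replicate 1 lay below ko replicate 2 in 6 of the 7 and above it in Krt15, as it did in Cxcl14 and Ccl27a. The atypical receptors Ackr3 and Ackr4, which take up chemokines without signalling through G proteins, showed the same lows and highs. Ackr3, which binds Cxcl12, had 9.73, 0.851 and 12.6 CPM in the wt libraries, in replicate order, against 3.68, 4.38 and 28.8 CPM in the ko libraries (a log2 fold change of 0.66 with an adjusted p of 0.867). Of 7 basal markers 0 passed in edgeR or DESeq2, and 0 had a p under 0.05 before adjustment. Their part in the spread of Cxcl14 and Ccl27a was not tested.

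**Figure D4:**
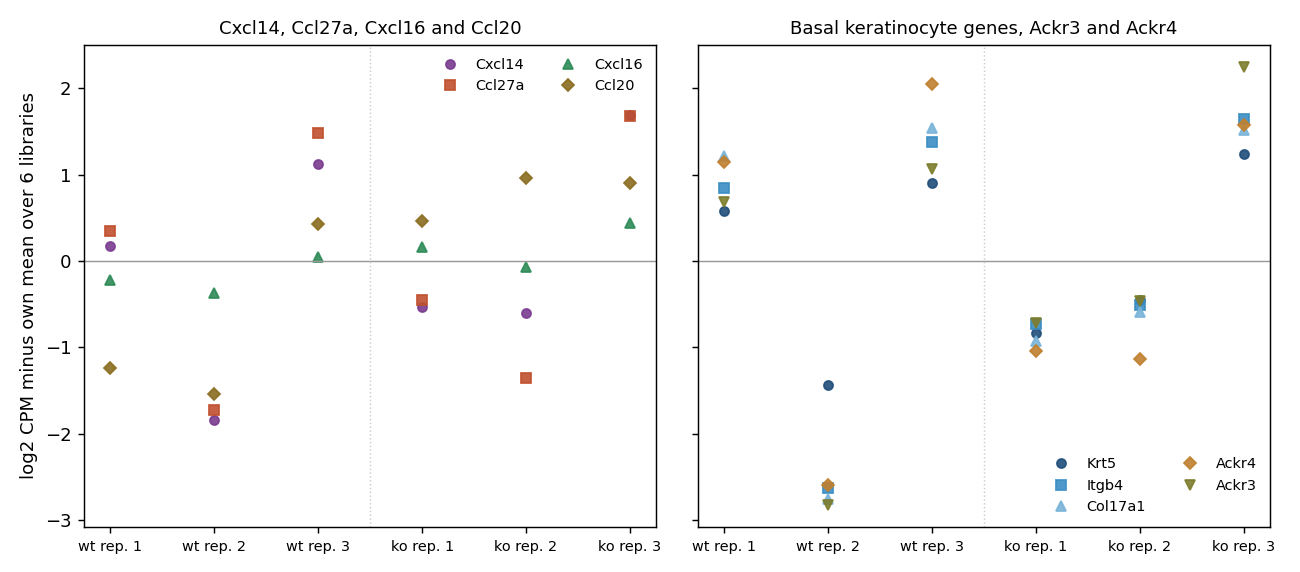
Log2 CPM of each gene minus its own mean over the 6 libraries, for Cxcl14, Ccl27a, Cxcl16 and Ccl20 (left) and for the basal keratinocyte genes Krt5, Itgb4 and Col17a1 with Ackr3 and Ackr4 (right). Wt replicate 2 is the lowest and the third replicates are high for Cxcl14, Ccl27a and all genes on the right, while Cxcl16 stays close to 0.

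Cxcl12 (ENSMUSG00000061353, chromosome 6, 117168535 to 117181367), the stromal chemokine of the list, had 7.97, 3.62 and 4.44 CPM in the wt libraries, in replicate order, against 6.36, 5.44 and 3.36 CPM in the ko libraries. The groups overlapped, with a log2 fold change of -0.09 (SE 0.38, 95% interval -0.98 to 0.81), while the fibroblast and endothelial sums lay higher in ko. Its signalling receptor Cxcr4 lay at 3.81 ± 0.335 and 3.41 ± 0.932 CPM (SD, n = 3), with a log2 fold change of -0.16 and an adjusted p of 0.871 by edgeR.

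Per kb of transcript, Cxcl14 had the highest mean in both genotypes, at 36.8 ± 29.4 CPM per kb in wt and 47.2 ± 45.7 in ko (SD, n = 3). In wt it was followed by Cxcl16 (28.05 ± 4.18), Ccl27a (18.9 ± 16.3) and Ccl20 (13.5 ± 10.7), and the libraries of neighbours in this order overlapped. A clear step led down to Cxcl12 (0.949 ± 0.411), Cxcl1 (0.774 ± 0.526) and Cxcl2 (0.603 ± 0.319), which overlapped as well. Another led to Cxcr2 (0.0909 ± 0.0345), with Cxcl3 and Cxcl5 at 0. In ko the order was Cxcl14, Cxcl16, Ccl20, Ccl27a, Cxcr2, Cxcl1, Cxcl2, Cxcl12, Cxcl3 and Cxcl5. Cxcr2, at 3.45 ± 1.53, was separate from Ccl27a above it (18.7 ± 19.9) and overlapping with Cxcl1 below it (1.71 ± 1.38).

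Other chemokines and their receptors were read from the fit across all genes. Of 29 further chemokines 9 were tested, and 0 passed with edgeR or limma-voom. At an unadjusted p under 0.05, Cx3cl1 was higher and Ccl6 lower. Cx3cl1, the chemokine fractalkine, lay at 14.6 ± 2.44 and 19.5 ± 1.69 CPM (SD, n = 3), with a log2 fold change of 0.42 and an adjusted p of 0.331 by edgeR. Ccl6 lay at 22.3 ± 5.8 and 9.42 ± 1.75 CPM, all ko libraries lying below the wt libraries (a log2 fold change of -1.24 with an SE of 0.23 and an adjusted p of 0.0946), and it was called lower by DESeq2 and with the date in the title as a covariate. DESeq2, which also tested genes of fewer reads, called Ppbp and Ccl24 higher. A further list of 25 genes held receptors, and also genes of the chemokine-like factor family such as Cmtm3, which encode no chemokine receptor. Of these 25 genes 14 were tested, and 0 passed with edgeR. At an unadjusted p under 0.05, 3 were higher, among them Ccr1 and Cmtm3. Ccr1, a receptor of monocytes and neutrophils, lay at 0.282 ± 0.0642 and 1.49 ± 0.272 CPM (a log2 fold change of 2.37 with an SE of 0.34 and an adjusted p of 0.0658), and DESeq2 called it and Ccr3 higher. No wt library of Ccr1 reached the filter's minimum, so that it was tested only through ko and its p supports nothing. Ccr3, a receptor of eosinophils, had no reads in wt and 47 in ko. That is 17.8 times the floor of 3 reads over the wt group, leaving out counting error in ko. Cxcr1, which lies next to Cxcr2 and encodes the related receptor, had no reads in wt and 17 in ko, or 6.42 times the same floor. In ko replicates 1 to 3 it had 0.0497, 0.71 and 0.21 CPM. The difference between Cxcr2 and these receptors was not tested.

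**Figure D5:**
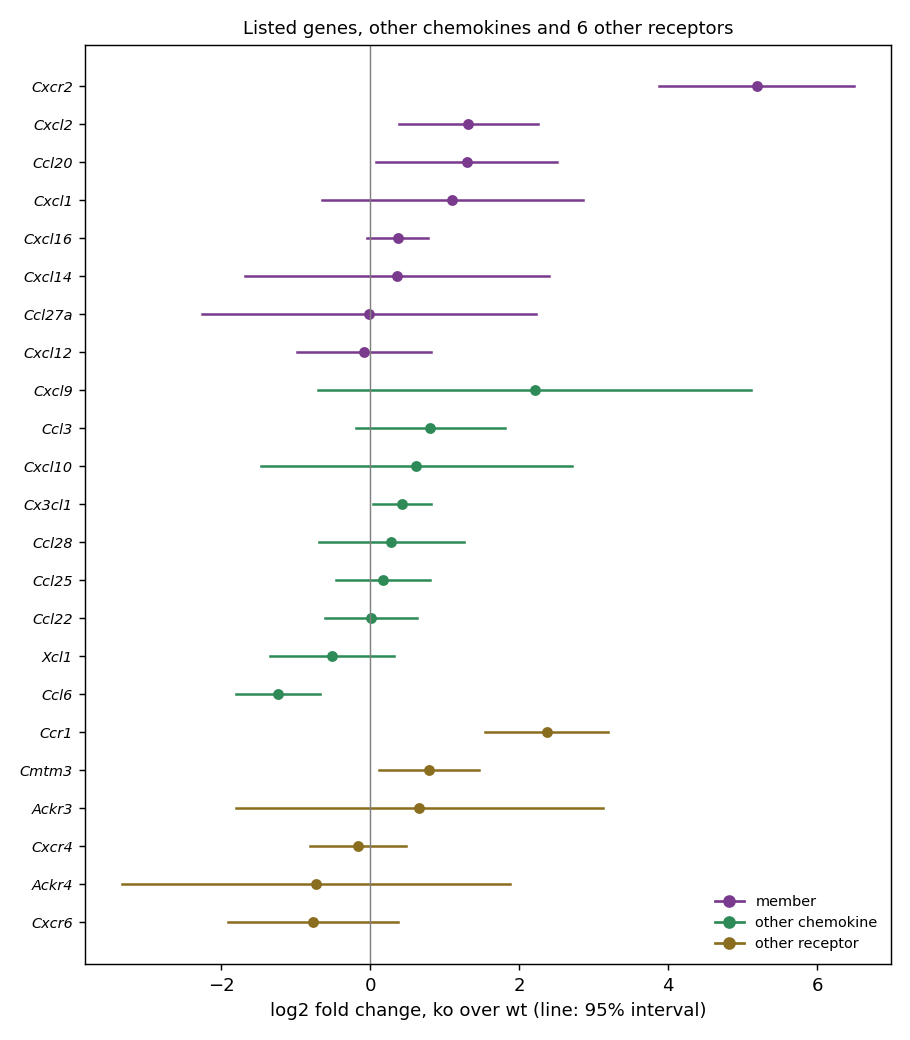
Log2 fold change of ko over wt with its 95% interval for the 8 listed genes that were tested (purple), 9 other chemokines (green) and 6 genes of the further receptor list, those named in the text (brown), sorted within each class. Cxcr2 stands at 5.19, and the intervals of Cxcl14, Ccl27a, Ackr3 and Ackr4 are among the widest.

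Genes that carry the signal of CXCR2 or end it were present throughout. Of 28 tested 0 passed with edgeR or limma-voom, 4 were higher and 1 lower at p under 0.05 before adjustment, and DESeq2 called 2 higher (median log2 fold change 0.24, against 0.02 over all genes tested). Pik3cg, the lipid kinase that acts downstream of G protein beta-gamma subunits, lay at 3.13 ± 0.283 and 5.54 ± 0.345 CPM (SD, n = 3), with a log2 fold change of 0.82 and an adjusted p of 0.143 by edgeR. Rgs2, which shortens G protein signals, lay at 86.7 ± 17.1 and 154.9 ± 41.7 CPM (0.84, adjusted p = 0.184). Grk5, a kinase that desensitises such receptors, lay at 16.5 ± 4.99 and 10.1 ± 1.01 CPM (-0.71, adjusted p = 0.305). Among 22 tested genes of NF-kB and IL-17 signalling, which induce Cxcl1, Cxcl2 and Ccl20, 0 passed with edgeR, DESeq2 or limma-voom. Of these, 21 had values above 0 (median 0.44), and 7 were higher and 0 lower at p under 0.05 before adjustment. Over all genes tested, 53.1% had values above 0 and 7.98% were higher at that p. Il1a lay at 60.0 ± 7.55 and 94.0 ± 16.5 CPM (a log2 fold change of 0.65 with an adjusted p of 0.169), and Nfkb1, which encodes an NF-kB subunit, at 56.98 ± 17.1 and 101.0 ± 26.0 CPM (0.82, adjusted p = 0.27). Of 9 tested proteases that trim or shed chemokines, and an inhibitor of them, 0 passed, and Mmp12, which reached the filter's minimum in 1 wt library, and Adam10 were higher at p under 0.05 before adjustment.

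Of 12610 genes with a mean of at least 1 CPM, the 10 whose log2 CPM over the 6 libraries were most like those of Cxcr2 had a Pearson correlation of 0.992 to 0.998 with it. After each genotype's mean was subtracted, the correlations of these 10 were 0.867 to 0.982. In order they were Zcchc24, Pde5a, Mcmbp, Lypd1, Serpinb3c, Sprr2g, Krt16, Gk, Stx11 and Lrrc1. Among them, Krt16 is a keratin of wounded epidermis, Sprr2g a cornified envelope precursor and Serpinb3c a protease inhibitor. The others, with Zcchc24, Pde5a and Mcmbp as the most alike, were not assigned to a cell type here. None of the 10 is on the marker lists used. Krt16 had 127.8, 96.1 and 233.2 CPM in the wt libraries, in replicate order, against 1733, 4743 and 3537 CPM in the ko libraries. Zcchc24 had 1.89, 1.6 and 2.27 CPM in the wt libraries, in replicate order, against 6.01, 8.75 and 9.86 CPM in the ko libraries. In both, as in Cxcr2, ko replicate 1 was the lowest of the ko libraries. The 10 genes were picked by likeness to Cxcr2 in these same libraries. Their shared order and their correlations within genotypes therefore largely follow from the choice, and the cells that carried Cxcr2 were not tested. Of the 7 listed chemokines tested, Ccl20 (0.837) and Cxcl2 (0.834) had the highest correlations with Cxcr2 and Cxcl12 the lowest (-0.0888). After each genotype's mean was subtracted the order changed. Cxcl1 was then highest at 0.694, with Ccl20 at 0.584, Cxcl2 at 0.000711 and Cxcl12 lowest at -0.172. With 6 libraries in 2 groups, such values hold the difference between the groups and whatever the libraries share.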

How the data were processed

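Poly(A) RNA libraries of epidermis, 3 wt and 3 ARPC4 ko, were made with a stranded kit and read as single ends of 51 bases, per the labels. The authors deposited unnormalized counts of reads per Ensembl gene. TopHat2 2.0.12, Bowtie 1.1, HTSeq and mm10 are named in the submitters' processing notes, and their settings were not given in the sources used here. Lines that name no gene were set aside before any scaling or test. They held reads with several alignments (32.4 to 40.9% of the reads listed), ambiguous reads (0.38 to 0.499%) and reads outside genes (0.341 to 0.377%). Symbols matched 40254 identifiers. Coordinates and transcript lengths came from GENCODE M21 (GRCm38, the assembly of mm10) and promoters from RefSeq (GRCm38.p6). Groups came from the genotype label and replicate numbers from marks in the titles (I, II, Tryp). Replicates differed by more than sampling noise, with a chi-square of 24.4 to 105.5 per degree of freedom, so each counted once.

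Genes were kept by filterByExpr, scaled by TMM and tested with edgeR 4.0.16 (glmQLFit, robust, then glmQLFTest on genotype) in R 4.3.3, with Benjamini-Hochberg adjustment over all 13704 genes and a threshold of 0.05. Each SE was the log2 fold change divided by root F. DESeq2 1.42.0, limma-voom (limma 3.58.1) and other scalings, filters and library sets were alternatives. Log2 CPM used a prior count of 2. The listed genes, the 16 other lists (222 of the 225 different genes on all lists were found) and the rules were chosen with earlier results of these data known. Named from each other list were all genes past the threshold or else up to 3 with the smallest p, and the receptors of the listed chemokines. Ppbp, Ccl24, Ccr3, Csf3r, Krt5, Col17a1, Ackr4 and single markers were added after their values were seen. Some genes of the lists are not reported here.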

Additional observations from a re-analysis of the deposited data

How the results depend on the processing

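The ratio of Cxcr2 held under all 14 other analyses, with log2 fold changes of 4.94 to 5.52. How many of all genes passed did not: 30 in the analysis reported, 57 without a filter on low counts, 650 with DESeq2, 0 with limma-voom (1748 before adjustment), 709 with the date in the title as a covariate, 227 in the dated libraries alone and 0 to 64 when 1 library was left out. That count was 0 without wt replicate 1, 2 or 3 or ko replicate 2 (1229 to 2350 genes at an unadjusted p under 0.05), so the call of Hdc rests on each of these libraries. Hdc was also not called without ko replicate 1. The cause was not tested. With a replicate block 354 genes passed. The deviations of libraries with one number from their group means correlated at -0.19, 0.47 and 0.67 over genes for replicates 1, 2 and 3, so the numbers were not taken as pairs. Rgs2, Lcn2, Nfkb1, Ccr1, Mrc1 and Fbln1 were called higher with the block and with the title covariate, as were 4 and 6 endothelial markers, and Ccl6 was called lower with that covariate.

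The values of 3 listed chemokines changed sign. Cxcl12 ranged from -0.30 to 0.28 when 1 library was left out, above 0 without wt replicate 1 (0.28) or ko replicate 3 (0.11). Cxcl14 stood at -0.077 in the dated libraries alone and ranged from -0.86 to 1.13 when 1 library was left out, below 0 without wt replicate 2 (-0.11) or ko replicate 3 (-0.86). Ccl27a ranged from -1.41 to 0.87, above 0 without wt replicate 3 (0.87), ko replicate 1 (0.30) or ko replicate 2 (0.43). Cxcl1, Cxcl2, Cxcl16 and Ccl20 stayed above 0 under all 14, but Cxcl1 moved from 1.1 to 0.15 without ko replicate 3 and to 0.41 in the dated libraries alone, and Ccl20 ranged from 0.97 without wt replicate 2 to 2.16 without wt replicate 3. For genes of a few reads per library, such as Cxcl3, Cxcl5, Cxcr1 and Ccr6, counting error limits any comparison.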

Other observations

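Around Cxcr2, within 200 kb on either side on chromosome 1, lie 12 other genes of the count files, of which 7 were tested and 0 passed with edgeR. The stretch was chosen after the values of Cxcr2 were seen. It holds Arpc2, a further subunit of the Arp2/3 complex, with a mean of 250.8 CPM in wt against 272.7 CPM in ko, a log2 fold change of 0.12 (SE 0.12) and an adjusted p of 0.77. Rufy4, 5766 bases from Cxcr2, had means of 0.479 and 0.427 CPM and a log2 fold change of -0.21 (SE 0.78), with an adjusted p of 0.945. The largest of the 7 differences was that of Pnkd, a gene named for a paroxysmal movement disorder, with 103.7 and 47.8 CPM and every ko library below every wt library (log2 fold change -1.12, SE 0.24), with an adjusted p of 0.117.

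Further cell markers were listed. Melanocyte markers summed to 61.8 to 72.7 CPM in wt and 78.3 to 128.2 CPM in ko, and 0 of 6 passed with edgeR or DESeq2 (3 higher at an unadjusted p under 0.05). T cell markers summed to 42.4 to 53.8 CPM in wt and 34.5 to 66.1 CPM in ko, and 0 of 7 passed in edgeR or DESeq2, also without adjustment in edgeR. Of 7 Langerhans cell markers 0 passed with edgeR, and Mfge8 (log2 fold change 1.19, adjusted p = 0.234) was higher with DESeq2. Of 8 markers of cornified keratinocytes 0 passed in edgeR or DESeq2, also without adjustment in edgeR.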
